A study of Mus musculus with 48 samples.

Results

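The libraries described here came from G1-arrested Ku70-/- vAbl pro-B cells and captured joints of the Jκ1 signal end (SE) with or without L82-G17. They were chosen by their labels (genotype Ku70-/-, bait JK1SE, treatment with L82-G17 or with its DMSO control) and number 6 of the 48 libraries of the series. 3 libraries came from cells given STI-571 at 3 µM for 96 h together with 25 µM L82-G17, and 3 came from cells given the same STI-571 with DMSO. All 6 thus shared the mouse vAbl-ProB line type, the Ku70 deletion, the arrest and the bait, and differed in the inhibitor. The study's methods describe 1 Ku70-deficient clone, so other differences between this line and a WT line cannot be told apart from loss of Ku70. The study calls its experiments biologically repeated, but it does not describe libraries with L82-G17. The labels do not say which libraries came from separate cultures. The tests below thus measure the spread between libraries, which may be technical in part.

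vAbl pro-B cells are B cell progenitors transformed by the Abelson kinase. STI-571 (imatinib) blocks that kinase, the cells stop in G1, and the RAG endonuclease is induced and cuts the Igκ light chain locus between each coding segment and its recombination signal sequence (RSS). Every cut leaves a hairpin-sealed coding end (CE) and a blunt signal end. Classical end joining, which needs the Ku70/Ku80 heterodimer, pairs signal end with signal end and coding end with coding end. Without Ku70, alternative end joining (A-EJ) takes over. It tolerates loss of bases, uses short microhomology (MH) and also makes hybrid joints, in which a signal end meets a coding end. L82-G17 is known as an inhibitor of DNA ligase I, which the labels do not state. The study reports that the protein of this ligase fell in arrested Ku70-/- cells and was nearly absent by the end of the arrest. Whether the differences below act through this ligase was not tested. High-throughput genome-wide translocation sequencing in its JoinT form starts from a primer beside 1 defined break, the bait, and reads into whatever sequence, the prey, was joined to it.

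The bait was the signal end of Jκ1 (Igkj1, ENSMUSG00000076604.1), whose coding segment lies at chr6:70672556-70672593 on the plus strand of mm9. Its RSS is shown because base loss is described in its parts below. It is read from the break outward, on the minus strand at chr6:70672517-70672555, and capitals mark the heptamer and the nonamer, the elements that RAG recognises, with the 23 bases of spacer between them in lower case.

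Jκ1 23-RSS: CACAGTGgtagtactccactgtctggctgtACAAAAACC

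The prey signals of the Vκ genes have a spacer of 12 bases. Those of the 8 break sites used most in the DMSO libraries are given in the same way, from the break outward, since these sites carried the largest counts. Igkv1-135 (chr6:67560503-67560530, plus strand) and Igkv16-104 (chr6:68376067-68376094, plus strand) join Jκ1 by deletion. Igkv1-88 (chr6:68812231-68812258), Igkv4-80 (chr6:68966524-68966551), Igkv4-50 (chr6:69650733-69650760), Igkv12-46 (chr6:69714489-69714516), Igkv12-44 (chr6:69764597-69764624) and Igkv12-41 (chr6:69808386-69808413), all on the minus strand, join it by inversion. The last 3 have 1 signal in common.

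Igkv1-135: CACAGTGattcagacccgaACAAAAACT

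Igkv16-104: CACAGTGatacaagtcataACAAAAACC

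Igkv1-88: CACAGTGatttataccccaACAAAAACT

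Igkv4-80: CACAGTGatacagactagaACAAAAACC

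Igkv4-50: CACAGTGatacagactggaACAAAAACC

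Igkv12-46, Igkv12-44 and Igkv12-41: CACAGTGattcaagccatgACATAAACC

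Each library had been brought to 500000 read pairs before mapping, and listed 176513, 188052 and 192122 junctions with DMSO (replicates 1, 2 and 3) and 117582, 116039 and 124915 with L82-G17. Copies of a junction had been kept, so a junction here is a read pair, and a distinct junction is any one combination of where the prey lies and on which strand, where the bait stopped, and how many bases overlap or intervene. DMSO replicate 1 stood apart. Its Vκ junctions came from 954 distinct junctions, with 149 copies each on average, against 8.51 to 14.9 copies in the other 5 libraries, and its 10 commonest joints made up 24.8% of its Vκ junctions against 1.04 to 2.93%. Values are therefore given for every library, and the main differences are also stated without it. The labels were checked on joints themselves, as the lists hold no expression: hybrid joints were 1.62 to 1.93% of Vκ junctions in arrested WT cells with this bait against 47.4 to 47.9% in these Ku70-/- DMSO libraries, and cycling Ku70-/- cells gave Vκ junctions in 0.397 to 0.805% of read pairs.

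With 3 libraries against 3, an exact two-sided permutation test of the library means has 20 assignments and a smallest p of 0.1, so no single comparison could reach 0.05 by this test and none is called changed. p = 0.1 in such an exact test means that the groups' values did not overlap. After Benjamini-Hochberg adjustment over the 17 comparisons made this way, the smallest adjusted p was 0.17.

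L82-G17 libraries held fewer joints of the Jκ1 signal end to the Vκ region. Vκ junctions numbered 141924, 142533 and 148225 with DMSO against 85923, 85471 and 93395 with L82-G17. V-J efficiency, the percent of read pairs that were Vκ junctions, was 28.4, 28.5 and 29.6% with DMSO and 17.2, 17.1 and 18.7% with L82-G17. Every inhibitor library lay below every DMSO library. The DMSO libraries averaged 28.8% ± 0.695 (SD, n = 3) and the L82-G17 libraries 17.7% ± 0.890 (SD, n = 3), a difference of -11.2 points (-11.4 without DMSO replicate 1, exact permutation p = 0.1). Fewer cells that recombined and fewer joints per cell cannot be told apart in such libraries.

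The number of distinct joints varied more between libraries. Distinct Vκ junctions numbered 954, 13337 and 10693 with DMSO and 7502, 5744 and 10971 with L82-G17. The groups overlapped, and the largest L82-G17 library held more than DMSO replicate 3. On the log2 scale the difference was 0.60 with all libraries and -0.62 without DMSO replicate 1 (exact permutation p = 0.9 with all 6). The mean number without it was 0.672 of that with DMSO, but the groups still overlapped. Drawn down to 85471 Vκ junctions, the size of the smallest library, the counts of distinct joints still overlapped, at 743, 11328 and 9064 against 7490, 5744 and 10695. At this depth, a difference in how many separate joints were made was thus not detectable, and the V-J efficiency rests on copies.

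Hybrid joints were lower than SE-SE joints in relative terms. SE-SE joints, the reciprocal product of normal V(D)J recombination, numbered 74245, 74934 and 77247 with DMSO and 54503, 54250 and 57720 with L82-G17. Hybrid joints, in which the Jκ1 signal end was tied to a Vκ coding end, numbered 67679, 67599 and 70978 with DMSO and 31420, 31221 and 35675 with L82-G17. The L82-G17 mean was 0.735 of the DMSO mean for SE-SE joints and 0.477 of it for hybrid joints. In the DMSO libraries the 2 products were close to equal, at 1.097, 1.109 and 1.088 SE-SE joints per hybrid joint, whereas L82-G17 libraries had 1.73, 1.74 and 1.62. On the log2 scale the ratio was 0.63 higher with the inhibitor, and also 0.63 without DMSO replicate 1 (exact permutation p = 0.1).

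**Figure D1:**
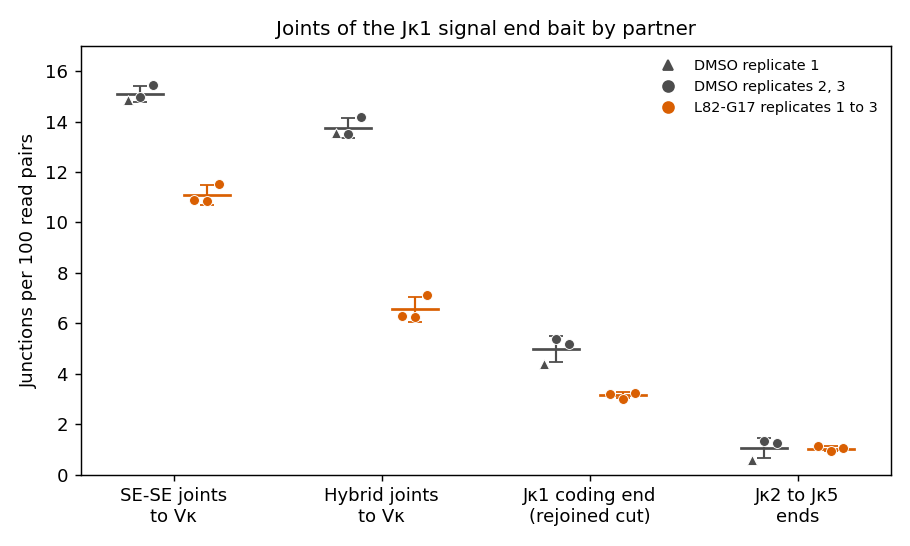
Junctions per 100 read pairs (y axis) of the Jκ1 signal end bait, by partner end (x axis), in each library. Points are libraries, horizontal lines group means and bars the SD (n = 3). SE-SE joints lie at 14.8 to 15.4 with DMSO and 10.9 to 11.5 with L82-G17, hybrid joints at 13.5 to 14.2 and 6.24 to 7.14, while the groups overlap for Jκ2 to Jκ5 through DMSO replicate 1.

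The hybrid share held when each distinct junction was counted once. Hybrid joints were 47.7, 47.4 and 47.9% of Vκ junctions with DMSO and 36.6, 36.5 and 38.2% with L82-G17. Among distinct Vκ junctions they were 45.2, 48.8 and 48.3% with DMSO and 37.5, 35.9 and 39.6% with L82-G17. The groups did not overlap in either counting, and DMSO replicate 1 lay with its group in both.

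More bases were missing per joint in the L82-G17 libraries. The values here and below are shares or medians of the joints listed, which were fewer with L82-G17. A larger share thus need not mean a larger number of such joints. On the bait side, the signal end was intact, with no base of the RSS missing, in 11.4, 12.2 and 11.5% of Vκ junctions with DMSO and in 7.59, 7.92 and 7.26% with L82-G17. Bases shared by bait and prey were counted as kept on both sides, and intact ends include those whose read matched past the cut by chance or otherwise (2.32 to 2.93% with DMSO and 1.12 to 1.35% with L82-G17). The bait had lost a median of 10 bases in all 3 DMSO libraries and of 13, 12 and 13 bases with L82-G17. The means of the intact share differed by -4.09 points (-4.26 without DMSO replicate 1, exact permutation p = 0.1).

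The parts of the bait RSS in which the loss ended differed as follows. Joints that ended inside the heptamer, after 1 to 7 bases were lost, were 29.5, 26.8 and 27.2% with DMSO against 21.9, 22.6 and 20.2% with L82-G17. Those that ended in the spacer were 49.65, 48.04 and 47.67% against 47.4, 48.4 and 50.1%, so the groups overlapped there. Those that ended in the nonamer, 31 to 39 bases from the cut, were 8.92, 10.8 and 11.2% against 19.41, 17.80 and 18.96%. The nonamer share was thus 1.81 times as large with the inhibitor, and 1.70 times without DMSO replicate 1. As Vκ junctions were fewer with L82-G17, this is not a ratio of numbers of joints. The groups lay apart too with each distinct junction counted once, at 13.6, 14.2 and 14.1% with DMSO and 21.39, 22.08 and 21.02% with L82-G17. Loss past the nonamer was 0.579, 2.13 and 2.41% against 3.69, 3.32 and 3.47%. No loss over 43 bases from the bait can be seen, because the read has to hold the bait primer, so the far part of this distribution is cut short in all libraries.

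Single positions stood out in the profile of bait loss. In DMSO replicates 2 and 3 and in the L82-G17 libraries, losses of 0, 12 and 13 bases were among the 4 commonest. A further rise lay inside the nonamer at 37 bases lost, which held 0.673, 2.55 and 2.90% of Vκ junctions with DMSO and 4.25, 4.33 and 4.09% with L82-G17. In DMSO replicate 1 the commonest losses were of 4 and 13 bases.

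**Figure D2:**
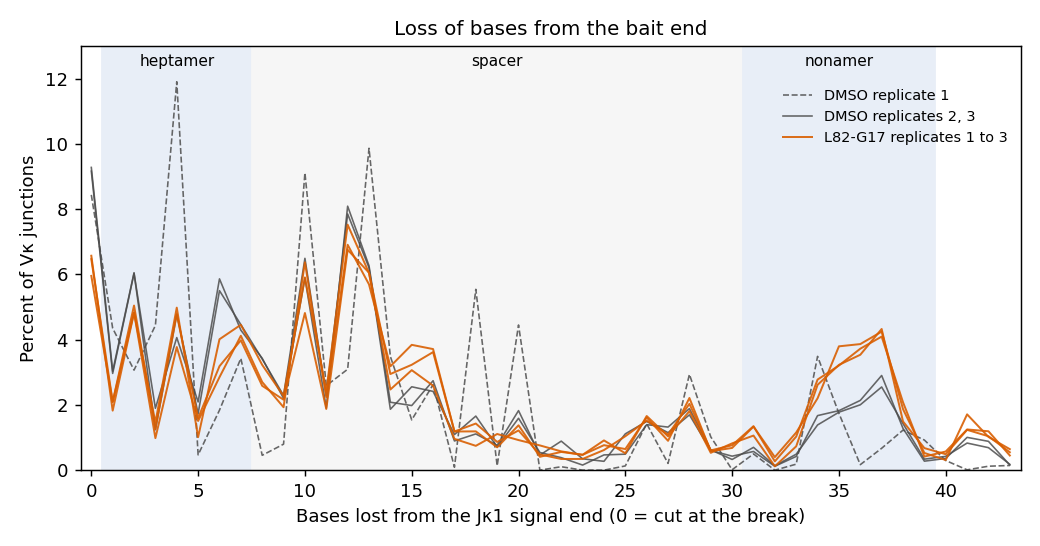
Percent of Vκ junctions (y axis) by the number of bases lost from the Jκ1 signal end (x axis, 0 to 43 bases), 1 line per library, with the heptamer, spacer and nonamer of the bait RSS shaded. Ends matched past the cut are not drawn. The 3 L82-G17 lines lie above the DMSO lines at 37 bases in the nonamer (4.09 to 4.33% against 0.673 to 2.90%) and below them at 0 bases (5.95 to 6.57% against 8.44 to 9.28%).

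The Vκ signal ends in SE-SE joints showed the same order. They were intact in 20.0, 14.9 and 15.1% of SE-SE joints with DMSO and in 11.7, 13.1 and 10.6% with L82-G17. Joints with loss past the end of the prey signal, 29 bases or more, were 7.12, 10.0 and 11.6% with DMSO and 17.9, 16.9 and 16.8% with L82-G17. The 90th percentile of loss was 24, 29 and 31 bases with DMSO and 39, 40 and 38 bases with L82-G17. In none of these did the groups overlap, nor did they when each distinct junction was counted once (14.1, 14.4 and 15.2% against 20.7, 22.2 and 20.9% past the signal).

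Vκ coding ends, which are opened from a hairpin before joining, were rarely intact in either group (1.33 to 1.57% with DMSO and 1.73 to 2.29% with L82-G17). The median loss from them in hybrid joints was 10, 13 and 13 bases with DMSO and 16, 18 and 17 bases with L82-G17. Losses over 40 bases made up 12.1, 9.91 and 11.9% of hybrid joints with DMSO and 19.1, 19.1 and 18.1% with L82-G17. Counted once each, distinct joints gave 9.28, 11.1 and 12.3% against 19.4, 19.4 and 19.6%. The groups did not overlap in either counting. Unlike intact signal ends, intact coding ends were not less frequent with the inhibitor, and in distinct joints the groups overlapped for them.

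**Figure D3:**
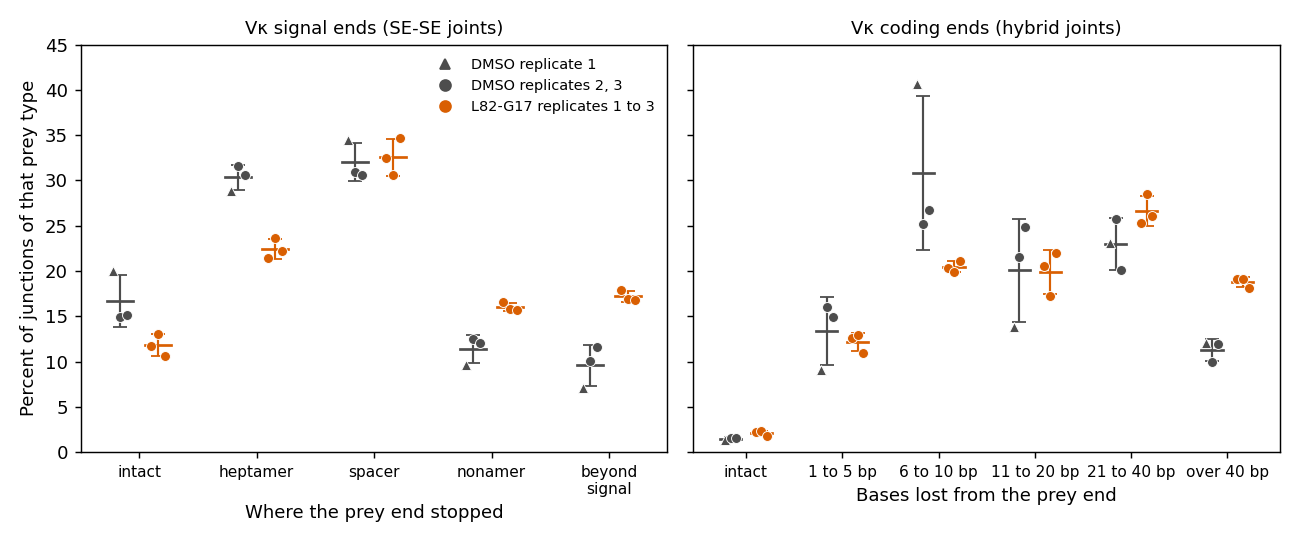
Percent of SE-SE joints (left) or hybrid joints (right) on the y axis by where the Vκ prey end stopped (x axis, parts of the Vκ RSS on the left and bases lost on the right). Points are libraries, lines means and bars the SD (n = 3). L82-G17 libraries lie above all DMSO libraries past the prey signal (16.8 to 17.9% against 7.12 to 11.6%) and for coding end losses over 40 bp (18.1 to 19.1% against 9.91 to 12.1%), and below them in the heptamer.

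Over both prey types, 56.2, 52.0 and 51.5% of the junctions within 100 bp of a break lay within 10 bp of it with DMSO and 42.7, 45.2 and 42.1% with L82-G17. The difference was -9.89 points (-8.43 without DMSO replicate 1, exact permutation p = 0.1). The median prey loss was 10 bases in each DMSO library and 14, 12 and 13 bases with L82-G17. Bases lost from both ends together had a median of 19, 18 and 19 in SE-SE joints with DMSO and 25, 23 and 26 with L82-G17, and in hybrid joints of 28, 27 and 26 against 37, 39 and 37.

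Joints with no loss at all can be compared between groups in copies only. SE-SE joints with both ends intact and nothing shared or inserted are the product of precise joining. SE-SE joints with both ends exactly at the cut were 10.0, 3.40 and 3.22% with DMSO and 1.76, 1.96 and 1.62% with L82-G17. Ends matched past the cut are not counted here, unlike in the intact shares above. Counted once each, joints with both ends at the cut were 1.53, 1.23 and 1.23% of distinct SE-SE joints with DMSO against 0.853, 1.25 and 0.920% with L82-G17, and the groups overlapped. A precise joint is the same distinct junction each time it forms at a site, so this counting finds it at most once per site in a library. It was seen at 5, 71 and 55 sites with DMSO and at 34, 36 and 48 with L82-G17. Distinct counting thus cannot show how often precise joints were made.

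Direct joints were less frequent with L82-G17 among junctions, but not in every counting. A joint is direct when bait and prey abut, it has MH when bases at the joint fit both, and it has an insertion when bases at the joint fit neither. Direct joints were 60.5, 56.6 and 57.5% of Vκ junctions with DMSO and 53.2, 51.0 and 52.5% with L82-G17, a difference of -5.94 points (-4.77 without DMSO replicate 1, exact permutation p = 0.1). Counted once each, direct joints were 31.4, 49.4 and 48.1% with DMSO and 47.2, 46.0 and 48.7% with L82-G17. The groups then overlapped, the difference of the means was 4.31 points with all libraries and -1.46 points without DMSO replicate 1.

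MH of 1 bp accounted for 16.7, 21.5 and 20.9% with DMSO and 24.61, 23.01 and 23.33% with L82-G17. Among distinct joints it was 10.1, 18.2 and 17.5% against 19.97, 19.68 and 21.03%. The L82-G17 libraries lay above in both countings. MH over 1 bp, the class usually scored as MH-mediated end joining, was 22.2, 20.0 and 20.3% with DMSO and 20.5, 24.7 and 22.6% with L82-G17, and the groups overlapped. The difference was 1.76 points with all libraries (exact permutation p = 0.2) and 2.46 points without DMSO replicate 1, when the groups no longer overlapped. By length, MH of 3 bp did not overlap in junctions (3.46, 4.57 and 4.73% against 4.94, 6.36 and 5.64%) but did in distinct joints, and lengths of 2 and of 4 bp or more overlapped in junctions.

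MH of any length was 31.8, 36.6 and 37.9% of distinct joints with DMSO and 40.96, 41.06 and 41.49% with L82-G17. The commonest shared bases among distinct joints with MH over 1 bp were AC, at 10.1 to 11.6% with DMSO and 10.4 to 11.6% with L82-G17. Insertions were rare among junctions, at 0.5003, 1.96 and 1.37% with DMSO and 1.67, 1.28 and 1.53% with L82-G17. They took a larger share of distinct joints, 36.8, 14.0 and 14.0% against 11.8, 12.9 and 9.85%. The groups overlapped among junctions but not among distinct joints, where the L82-G17 libraries were lower. The large insertion share of DMSO replicate 1 in distinct joints lowers the shares of its other structures in that counting.

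**Figure D4:**
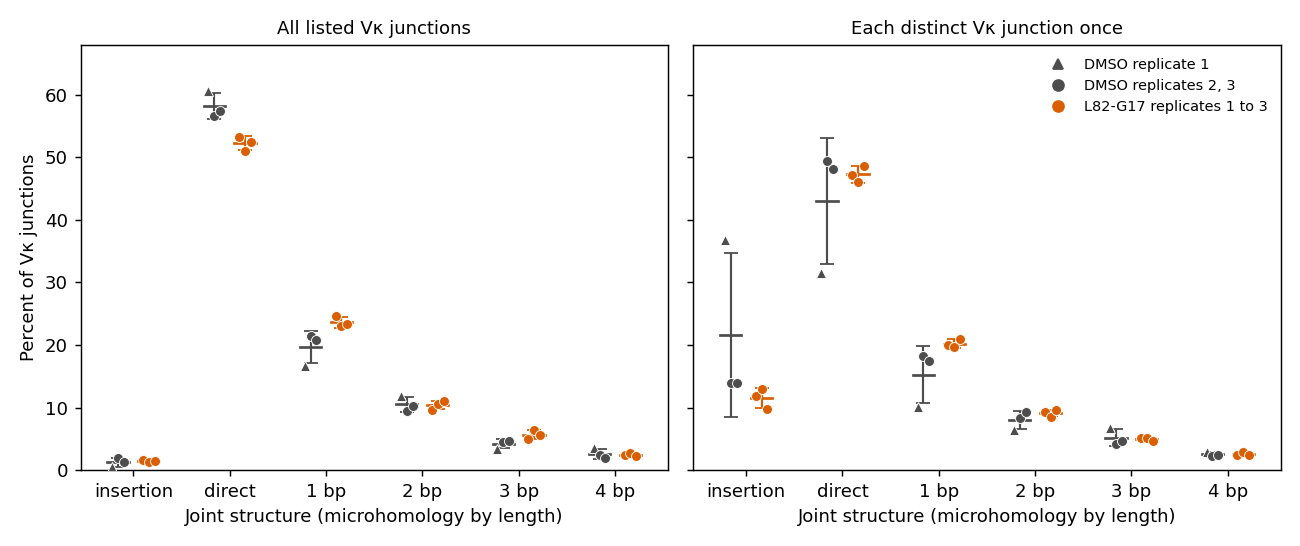
Percent of Vκ junctions (y axis) by joint structure, with microhomology by its length (x axis), counting all listed junctions (left) or each distinct junction once (right). Points are libraries, lines means and bars the SD (n = 3). MH of 1 bp is higher in all L82-G17 libraries on both sides (23.01 to 24.61% against 16.7 to 21.5% on the left), whereas the direct share separates the groups on the left only.

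Less direct joining was seen at short and long losses alike. Among junctions whose prey end lay within 10 bp of the break, 56.7, 56.4 and 56.6% were direct with DMSO and 52.7, 48.4 and 51.5% with L82-G17. Among those with larger prey loss, the values were 65.3, 56.8 and 58.3% against 53.6, 53.1 and 53.3%. MH over 1 bp was higher with L82-G17 in the first class, at 20.1, 22.9 and 23.1% against 24.7, 31.4 and 27.7%. In the second class it overlapped. Among distinct joints the direct share overlapped in both classes. MH over 1 bp then overlapped in the first class, at 25.9, 22.2 and 24.2% against 25.8, 26.8 and 25.1%. In the second class it did not overlap in this counting, at 17.5, 15.6 and 17.5% against 18.1, 18.1 and 17.9%.

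Some single joints recurred between libraries. Of 39121 distinct Vκ joints over the 6 libraries, 32195 were seen in 1 library and 19 in all 6. DMSO replicate 1, with its 954 distinct joints, limited that last number: 188 were seen in all of the other 5. The 4 of the 19 with the most copies are printed, chosen after their values were seen, with a further joint that bears on mapping. Each line gives 20 bases of the read on the bait side, in capitals, which include any bases shared with the prey, and then 20 bases of the prey in lower case.

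Igkv1-135 SE-SE joint, no loss: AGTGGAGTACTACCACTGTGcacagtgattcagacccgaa

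Igkv12-46 hybrid joint, 8 bases lost from the coding end: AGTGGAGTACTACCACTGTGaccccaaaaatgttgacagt

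Igkv12-44 hybrid joint, 8 bases lost from the coding end and 20 from the bait, 2 bases shared: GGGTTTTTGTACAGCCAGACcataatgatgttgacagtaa

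Igkv4-50 SE-SE joint, 4 bases lost from the bait, 3 bases shared: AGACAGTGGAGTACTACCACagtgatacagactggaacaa

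Igkv4-59 SE-SE joint, 4 bases lost from the bait, 3 bases shared: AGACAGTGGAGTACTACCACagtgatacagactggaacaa

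The precise Igkv1-135 SE-SE joint, heptamer to heptamer, had 3652, 191 and 173 copies with DMSO and 28, 166 and 85 with L82-G17. The Igkv12-46 hybrid joint had 2226, 161 and 210 copies against 39, 52 and 37. The Igkv12-44 joint owed its place to DMSO replicate 1, with 2662, 19 and 7 copies against 2, 6 and 9. The Igkv4-50 joint had 2017, 55 and 163 copies against 29, 15 and 8, and the Igkv4-59 joint 1, 1 and 25 against 1, 15 and 26. The last pair is alike over all 40 printed bases, so the gene of such a prey rests on bases further along the read, and near-identical Vκ4 sites may share junctions. The precise SE-SE joint was found at 90 Vκ sites, and made up 9.93, 3.34 and 3.15% of SE-SE joints with DMSO and 1.65, 1.89 and 1.55% with L82-G17.

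Vκ junctions came from 138 break sites between chr6 positions 67506211 and 70654172, of which 93 carried a gene name. Usage of a site is its junctions per 1000 Vκ junctions of a library. Of 100 sites with at least 50 junctions on average, limma called 0 above and 0 below DMSO after Benjamini-Hochberg adjustment (0% of tested sites in either direction), with 3 sites at an unadjusted p under 0.05. Libraries of the groups did not overlap for 15 sites higher with L82-G17 (15% of tested sites) and 6 lower (6%). Leaving out DMSO replicate 1, 101 sites were tested, again with 0 called in either direction (0%) and 12 at an unadjusted p under 0.05.

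The 8 sites most used with DMSO held from 18.9 to 65.9 junctions per 1000 Vκ junctions in single DMSO libraries. Igkv1-135, at the distal end of the locus, had 63.4, 49.2 and 51.6 per 1000 with DMSO and 61.6, 56.5 and 52.6 with L82-G17. Igkv12-44, nearer Jκ1, had 52.3, 46.0 and 42.6 against 43.1, 32.5 and 37.6. Igkv4-50 had 36.8, 30.7 and 33.7 against 29.6, 35.1 and 32.7. The groups overlapped at these 3 sites.

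Igkv1-88 had 65.9, 24.4 and 21.1 per 1000 with DMSO and 15.3, 14.1 and 14.6 with L82-G17. Its groups did not overlap, but the adjusted p of limma was 0.587. Igkv12-46 had 42.95, 27.86 and 28.05 against 24.70, 27.83 and 23.02, again without overlap, though L82-G17 replicate 2 came next to DMSO replicate 2. Igkv16-104 had 56.7, 25.8 and 28.6 against 38.28, 37.97 and 36.89, so that the L82-G17 libraries lay above DMSO replicates 2 and 3 and below replicate 1. Igkv4-80 had 57.8, 25.5 and 21.2 against 23.4, 20.7 and 22.2, and Igkv12-41 had 46.8, 18.9 and 27.5 against 24.4, 23.9 and 19.8, both with overlap. At each of these 5 sites DMSO replicate 1 was the highest of the 6 libraries. The 8 sites were chosen for their usage with DMSO, which favours a lower value with L82-G17 at them, so their order between groups is a description only.

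When distinct junctions were counted once without DMSO replicate 1 and sites with at least 10 of them on average were kept, a setting added after the data were seen, limma called 7 of 92 sites, 4 above (4.35%) and 3 below DMSO (3.26%). With the minimum of 50 kept it called 2 above (3.08%) and 4 below (6.15%) of 65 sites, and with DMSO replicate 1 included it called none of 57 sites at that minimum and none of 90 at 10, with 9 and 18 at an unadjusted p under 0.05. Igkv2-112, Igkv17-121, Igkv8-28 and an unnamed site at chr6:69631372-69631399 were higher with L82-G17, and Igkv9-123, Igkv8-24 and Igkv4-70 were lower, all from the first of these fits. Some of them were little used, such as Igkv17-121 with 0.805 distinct junctions per 1000 with DMSO and 2.10 with L82-G17. Igkv8-24 had 16.3 distinct junctions per 1000 with DMSO and 9.96 with L82-G17, a log2 difference of -0.70 ± 0.11 (SE, limma adjusted p = 0.0254). With all junctions it had 22.4, 16.7 and 16.8 per 1000 with DMSO and 9.75, 6.34 and 8.82 with L82-G17, a log2 difference of -1.17 that was not called (limma adjusted p = 0.587).

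The share of SE-SE joints could be compared at 88 single sites. It was higher with L82-G17 on average at 61 of them and lower at 26, with a median difference of 6.68 points (10.9 without DMSO replicate 1). The libraries did not overlap at 18 sites where it was higher (20.5%) and at 1 where it was lower (1.14%). Of the most used sites, only some are given here as examples. Igkv12-46 had 9.50, 31.1 and 29.3% SE-SE joints with DMSO and 56.4, 44.1 and 55.9% with L82-G17. Igkv12-44 had 14.0, 29.8 and 44.9% against 55.7, 59.8 and 54.6%. Igkv4-80 had 4.48, 32.5 and 24.5% against 46.3, 41.1 and 53.8%. Deletional Igkv1-135, already at 96.8, 84.0 and 78.3% with DMSO, had 87.2, 72.9 and 83.8% with L82-G17, and the groups overlapped. The share of prey ends within 10 bp was lower at 58 of the 88 sites and higher at 30. The libraries did not overlap at 18 where it was lower (20.5%) and at 2 where it was higher (2.27%).

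Sub-topologically associating domains (sTADs) divide the Vκ region from the distal sTAD1-2 to sTAD5 next to Jκ1. sTAD5 held 37.9, 39.9 and 40.1% of Vκ junctions with DMSO and 37.8, 36.7 and 38.1% with L82-G17, and sTAD1-2 held 17.4, 16.0 and 17.4% against 17.1, 16.8 and 16.5%. Both overlapped. Without DMSO replicate 1, the sTAD5 share no longer overlapped, at a difference of -2.42 points, but in distinct junctions the difference was 0.663 points with all libraries and 0.194 points without that one. Sites joined by deletion held 31.5, 32.9 and 35.1% of Vκ junctions against 36.2, 36.1 and 33.8%, with overlap.

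The SE-SE share within each part of the region was a clearer difference. In sTAD4, SE-SE joints were 35.8, 37.8 and 35.4% of the junctions with DMSO and 50.3, 48.7 and 50.1% with L82-G17. In sTAD5 they were 33.8, 48.6 and 49.9% against 58.2, 60.7 and 56.3%. At inversional sites, where signal joints are kept on the chromosome, they were 37.0, 41.9 and 40.9% against 53.2, 53.9 and 52.6%. None of these overlapped. At deletional sites, where the signal joint lies on an excised circle, they were 85.6, 74.4 and 72.8% against 81.4, 80.4 and 79.8%. In sTAD1-2 they were 84.4, 73.7 and 69.2% against 79.8, 74.3 and 79.4%, and in sTAD3 77.7, 65.2 and 65.5% against 78.2, 80.2 and 75.9%. In these last 3 classes only DMSO replicate 1 overlapped the L82-G17 libraries.

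**Figure D5:**
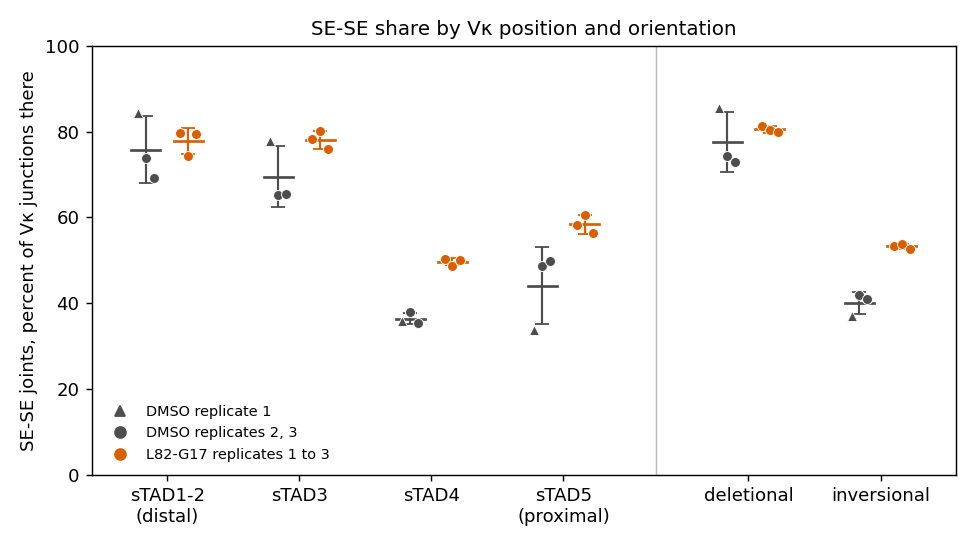
SE-SE joints as a percent of the Vκ junctions (y axis) in each sTAD, distal to proximal, and at deletional and inversional sites (x axis). Points are libraries, lines means and bars the SD (n = 3). In sTAD4, in sTAD5 and at inversional sites every L82-G17 library lies above every DMSO library, by 13.4, 14.3 and 13.3 points on average. Elsewhere DMSO replicate 1 (triangle) lies among the L82-G17 libraries or above them.

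In the Jκ region, within 2 kb of the bait break, the main product was the bait rejoined to its own Jκ1 coding end. Junctions in the region numbered 25251, 34935 and 33600 with DMSO and 23326, 21359 and 23392 with L82-G17. As a percent of read pairs the difference was -1.71 points (-2.32 without DMSO replicate 1, exact permutation p = 0.1). Distinct junctions of the region, at 292, 2208 and 2021 against 1691, 1491 and 2041, overlapped, with an L82-G17 mean 1.16 times that with DMSO and 0.823 times without DMSO replicate 1. As a share of all listed junctions the region lay 2.20 points higher with L82-G17 (0.957 without DMSO replicate 1), and the groups overlapped. Junctions to the Jκ1 coding end numbered 21985, 26839 and 25945 with DMSO and 15975, 15020 and 16192 with L82-G17, 0.631 of the DMSO mean, close to the 0.612 for Vκ junctions. Vκ junctions per Jκ1 coding end junction were 6.46, 5.31 and 5.71 against 5.38, 5.69 and 5.77, with overlap. The bait lost a median of 10, 12 and 12 bases in these rejoined breaks with DMSO and 15, 14 and 14 with L82-G17.

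The coding ends of other Jκ segments took a larger part of the joints with L82-G17. Junctions within 100 bp of Jκ2 to Jκ5 numbered 2944, 6611 and 6249 with DMSO and 5573, 4617 and 5241 with L82-G17. The overlap came from DMSO replicate 1, and without it the L82-G17 libraries were all lower, at 0.7999 of the DMSO mean. The Jκ2 coding end had 680, 1237 and 1104 junctions with DMSO and more, 1471, 1580 and 1287, with L82-G17. The Jκ4 signal end had 1279, 1057 and 1213 against 769, 758 and 699. Coding ends made up 52.2, 48.1 and 49.7% of the junctions at Jκ2 to Jκ5 with DMSO and 59.3, 64.4 and 58.8% with L82-G17. Among all junctions, the share of coding end partners was thus higher with L82-G17 at these segments and lower at Vκ. Among distinct junctions at Jκ2 to Jκ5, the groups overlapped in this share through DMSO replicate 1. Ends here were typed by strand alone, within 100 bp on either side of the start of a segment. A far-trimmed end of a neighbouring segment could thus be counted among them. In distinct junctions the Jκ2 coding end (14, 159 and 136 against 154, 128 and 175) and the Jκ4 signal end (12, 123 and 106 against 77, 56 and 90) overlapped.

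Translocations, the junctions off chromosome 6, numbered 3563, 1978 and 2034 with DMSO and 1134, 1699 and 1277 with L82-G17. The difference on the log2 scale was -0.85 (exact permutation p = 0.1) and -0.57 without DMSO replicate 1 (exact permutation p = 0.2), without overlap either way. Distinct junctions off chromosome 6 were few, at 24, 250 and 230 with DMSO and 164, 129 and 200 with L82-G17. Per 1000 distinct Vκ junctions they were 25.2, 18.7 and 21.5 against 21.9, 22.5 and 18.2, and the groups overlapped. A single junction with 2105 copies made up most of the count of DMSO replicate 1.

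The Igl light chain locus, also cut by RAG in these cells, was the leading target off chromosome 6 in 5 libraries. The bin that holds it (chromosome 16, 19000001 to 20000000) had 2, 48 and 46 distinct junctions with DMSO and 18, 7 and 27 with L82-G17. The 5 libraries other than DMSO replicate 1 separated there, with the inhibitor lower. Per 1000 distinct Vκ junctions Igl had 2.10, 3.60 and 4.30 against 2.40, 1.22 and 2.46. At Igh, the heavy chain locus, 0, 9 and 0 junctions with DMSO and 15, 55 and 36 with L82-G17 came from 0, 3 and 0 and from 3, 2 and 4 distinct junctions, and a count of 0 allows up to 3. Tcra/Tcrd had 0, 2 and 2 distinct junctions against 1, 1 and 1, and Tcrg had none in the 6 libraries.

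No other megabase bin held over 6 distinct junctions in all. The bin at chromosome 14, 54000001 to 55000000, which lies within the Tcra/Tcrd window, had 0, 1 and 2 with DMSO and 1, 1 and 1 with L82-G17. The bin at chromosome 11, 22000001 to 23000000, had 5 in DMSO replicate 1 and 1 in L82-G17 replicate 2. The bin at chromosome 5, 117000001 to 118000000, had 6, all in L82-G17 replicate 2, and 5 bins tied with 5 distinct junctions each. Of these, the bins at chromosome 11, 98000001 to 99000000, at chromosome 15, 102000001 to 103000000, and at chromosome 7, 106000001 to 107000000, held junctions of both groups. That at chromosome 14, 103000001 to 104000000, had all 5 in DMSO replicate 1, and that at chromosome 2, 104000001 to 105000000, all 5 in L82-G17 replicate 1. The bait was intact in 4.17, 5.20 and 5.65% of distinct junctions off chromosome 6 with DMSO and in 9.15, 10.9 and 9.50% with L82-G17, the opposite order to that at Vκ, on 24 to 250 junctions a library.

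The same inhibitor dose was given to arrested WT cells with this bait and to Ku70-/- cells with the coding end bait. In WT cells V-J efficiency was 67.6, 64.9 and 64.9% with DMSO and 27.4, 24.3 and 24.9% with L82-G17. The log2 difference was -1.37 there and -0.71 in Ku70-/- cells, 0.66 apart (0.65 without DMSO replicate 1). Over all pairs of an L82-G17 with a DMSO library it ran from -1.47 to -1.25 in WT and from -0.79 to -0.60 in Ku70-/- cells, so these ranges did not overlap. Treatment labels permuted within both genotypes test for no effect in either one, which could not tell 2 effects of 1 sign apart, so no p is given for such pairs. SE-SE joints outweighed hybrid joints further with L82-G17 in both genotypes, by 0.63 in Ku70-/- and 0.56 in WT cells on the log2 scale (difference of 0.07, with and without DMSO replicate 1). Direct joints differed by -5.94 points in Ku70-/- and by 1.12 points in WT cells, with opposite signs in all pairs of libraries (exact permutation p = 0.005, the smallest p possible, adjusted p = 0.05 over 10 tests, for no effect in either genotype). In distinct junctions the difference between genotypes was -0.292 points (exact permutation p = 0.985).

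With the coding end bait in Ku70-/- cells, V-J efficiency was 18.8, 22.4 and 21.5% with DMSO and 20.7, 20.5 and 20.96% with L82-G17. The log2 difference was -0.01 there and -0.71 with the signal end bait (difference of -0.70, or -0.64 without DMSO replicate 1 of both baits). Over all pairs of libraries it ran from -0.13 to 0.15 with the coding end bait, apart from the range with the signal end bait. The hybrid share with the coding end bait was 40.3, 32.7 and 33.0% against 23.3, 23.2 and 24.3%. SE-SE with the first bait and CE-CE with the second were thus both more frequent relative to hybrid joints with L82-G17, by 0.63 and 0.82 on the log2 scale, a difference of -0.19 that was -0.04 without DMSO replicate 1 of both baits. The share within 10 bp was lower with either bait, at -9.89 and -9.15 points, and the difference between these was -0.749 points (-1.40 without DMSO replicate 1). DMSO replicate 1 of the coding end bait likewise held few distinct Vκ junctions, 889.

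L67, an inhibitor of DNA ligases I and III, was given to the same cells at 5 µM, another dose than that of L82-G17, and shares the DMSO libraries, so its values are set beside without a comparison. V-J efficiency with L67 was 30.3, 29.5 and 27.8%. Hybrid joints were 52.4, 52.4 and 50.3% of Vκ junctions, 46.0, 46.2 and 47.1% of prey ends lay within 10 bp, and 56.7, 56.0 and 55.1% of the joints were direct.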

How the data were processed

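The deposited lists hold 1 junction per line, with its position and strand on mm9 and the alignment of bait and prey on the read. Per the labels and the study's methods, the authors took libraries to 500000 read pairs and mapped them (Bowtie2 is named, without a version) with copies kept. Counts of junctions were made here from these deposited lists, and percentages and ratios from the counts. The deposited columns are positions and identifiers, not measured values.

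Vκ break sites were taken from WT signal end junctions (at least 30 at a position, none higher within 50 bp, then CAC, shift of 1 base allowed) and junctions given to the nearest site within 200 bp. Genes came from GENCODE vM1 on NCBIM37, the assembly of mm9. Overlap of bait and prey up to 20 bp was MH and a gap up to 20 bp an insertion. Sub-TAD bounds follow the study. Site usage was tested on log2 of junctions per 1000 Vκ junctions, the value of 1 junction added, with limma 3.58.1 in R 4.3.3. That fit was tried on simulated negative binomial counts, with site means taken without DMSO replicate 1. The trial thus does not cover an outlying library. The rest was tested by exact permutation in Python 3.11.15 (scipy 1.17.1). The smaller of 2 sequencing runs held 9.94 to 10.4% of the junctions of each library. Binomial intervals (95%, exact Clopper-Pearson) span under 1 point for V-J efficiency. They treat each copy of a junction as independent, so they are too narrow as a measure of counting error, and they leave out the spread between libraries.

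Named sites were the 8 most used with DMSO and those called in 1 fit. That fit counted each distinct junction once, without DMSO replicate 1, at sites with at least 10 on average. Sites called only with the higher minimum were not listed. Off chromosome 6, the receptor loci and the 5 megabase bins with most distinct junctions were named, with all that tied for the fifth place. The libraries, lists and tests were chosen with earlier results of these data known. Alternatives tried were distinct counting, left-out libraries, other windows and other filters.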

Additional observations from a re-analysis of the deposited data

Results flagged for a closer look

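Results for which treatment labels permuted within both genotypes or both baits gave an exact p under 0.05 for the difference of the L82-G17 effects are listed here. The hypothesis tested is of no effect in either stratum, which is narrower than equal effects. A p under 0.05 here thus does not show that the effects differ. For the share within 10 bp, the exact permutation p within a genotype was 0.1 in Ku70-/- and 0.7 in WT cells. For junctions off chromosome 6, the exact permutation p within a bait was 0.1 with the signal end and 0.3 with the coding end. The test treats libraries of both baits as separate samples, and the labels do not say whether they came from the same cultures. The share of direct joints differed between genotypes by -7.06 points (-5.94 in Ku70-/- and 1.12 in WT cells, exact permutation p = 0.005, adjusted p = 0.05 over 10 tests), with the sign opposite in every library pair. Without DMSO replicate 1 it was -5.89 points (exact permutation p = 0.005), and in distinct junctions -0.292 points. The share within 10 bp of the break differed between genotypes by -9.93 points (-9.89 against 0.03, exact permutation p = 0.035, adjusted p = 0.117) and by -8.46 points without DMSO replicate 1. WT libraries had 99.6 to 99.8% of prey ends within 10 bp in either treatment, which leaves little room for a rise, though it leaves room for a fall. Junctions off chromosome 6 differed between baits by -1.09 on the log2 scale (-0.85 with the signal end and 0.24 with the coding end bait, exact permutation p = 0.015, adjusted p = 0.075), by -0.76 without DMSO replicate 1 of both baits (exact permutation p = 0.07), and by only -0.21 in distinct junctions (exact permutation p = 0.815).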

How the results depend on the processing

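With 3 libraries a group the exact permutation test of means could not pass 0.05, so what is followed here is whether the groups overlapped. Of 220 alternative values for 18 results within the 6 libraries, 169 kept their direction and their side of this line. V-J efficiency, the SE-SE to hybrid ratio, the share within 10 bp, the median prey loss, the intact bait share, the direct share and the 1-bp MH share kept theirs whichever library was left out. With other settings results changed, V-J efficiency and the direct share among them. With each distinct junction counted once, the differences were 85.3 for total junctions, -0.0511 points for V-J efficiency, 4.31 points for direct joints, -10.1 for insertions, 0.0468 for the Jκ region, 0.663 for sTAD5, -4.41 for antigen receptor loci among junctions off chromosome 6, and 0.54 (log2) for junctions off chromosome 6. Counted once per far end of the fragment as well, they were -1339 for total junctions, -0.310 for V-J efficiency, 0.848 for direct joints, -6.32 for insertions, 0.00680 for the Jκ region, -3.15 for receptor loci and 0.44 (log2) off chromosome 6. Counted once without DMSO replicate 1, a setting added after the data were seen like the next, they were -4547 for total junctions, -0.789 for V-J efficiency, -1.46 for direct joints, 1.58 for MH over 1 bp, -2.47 for insertions, -0.0747 for the Jκ region, -8.65 for receptor loci and 0.194 for sTAD5. Of distinct junctions with at least 2 copies, they were 430.3 for total junctions, 0.0203 for V-J efficiency, 2.50 for direct joints, -0.00962 for MH over 1 bp, -7.35 for insertions, 0.0433 for the Jκ region, -4.62 for receptor loci, -1.67 for sTAD1-2, 2.02 for sTAD5 and 0.69 (log2) off chromosome 6. As shares of all listed junctions, the Jκ region differed by 2.20 points and junctions off chromosome 6 by -0.213 on the log2 scale. The share within 5 bp, in place of 10 bp, differed by -1.9997 points with overlap. Site usage gave 7 calls in distinct junctions with at least 10 on average and without DMSO replicate 1, 6 with the minimum left at 50, and 0 in the other settings. Between genotypes, distinct counting gave -0.292 for direct joints and 1.14 (log2) off chromosome 6, and between baits 2.25 for direct joints, 2.27 for the share within 10 bp and -0.21 (log2) off chromosome 6. Leaving out 1 library at a time moved distinct Vκ junctions from -0.62 to 1.29 (log2), insertions from -0.167 to 0.560, MH over 1 bp from 0.709 to 2.82, sTAD1-2 from -0.611 to 0.112, sTAD5 from -2.42 to -1.32, the deletional share from 1.42 to 3.23 and receptor loci from -0.557 to 9.46. Without DMSO replicate 1, the difference between baits off chromosome 6 was -0.76. The cause of these shifts was not tested. No paired analysis was possible because the labels give no replicate numbers. Numbers here follow the order of the samples in the series, and the DMSO replicate 1 left out of each bait is the library with fewest distinct junctions. Whether these libraries of the different baits came from the same culture is not stated.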

Other observations

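Some junctions of the bait fell inside the Igκ region but away from Vκ and Jκ break sites. Between 2 kb past Jκ1 and the constant gene Igkc there were 4472, 3561 and 3483 junctions with DMSO and 2744, 2963 and 3015 with L82-G17, and the groups did not overlap. From Igkc to the end of the Igκ window on that side there were 349, 895 and 1036 against 862, 1221 and 892, with overlap. In the Vκ region over 200 bp from any break site there were 395, 3252 and 2553 against 2473, 2502 and 2359. Chromosome 6 outside Igκ held 553, 166 and 235 junctions with DMSO and 158, 113 and 127 with L82-G17, from 7, 24 and 23 and from 17, 18 and 27 distinct ones. Libraries shared few exact joints: DMSO replicates 2 and 3 shared 2242, which is 16.8% of the first and 20.97% of the second, and the 3 pairs of L82-G17 libraries shared 784 (10.45 and 13.65%, replicates 1 and 2), 1294 (17.2 and 11.8%, replicates 1 and 3) and 1086 (18.9 and 9.90%, replicates 2 and 3). DMSO replicate 1 shared 140 and 127 with the others of its group. Sharing was not confined to a group. With L82-G17 replicates 1, 2 and 3, DMSO replicate 1 shared 174, 76 and 131 joints. DMSO replicate 2 shared 1418, 1145 and 1980 with them, and DMSO replicate 3 shared 1194, 972 and 1723.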
